A study of Saccharomyces cerevisiae with 28 samples.

Results

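Wild-type budding yeast (Saccharomyces cerevisiae) was compared after 2 h at 36 °C and at 0 h, just before the temperature change. The comparison rests on 1 WT culture at 2 h and 1 at 0 h in YPA medium, each with a library of ribosome-protected fragments (footprints) and a library of fragmented, rRNA-depleted mRNA, which makes 4 of the 28 libraries of the series. Libraries were assigned to the comparison by their labels. The 2 h culture had grown in YPA with raffinose, had received galactose for 30 min and was held at 36 °C for 2 h. The labels do not say whether galactose stayed in the medium during those 2 h. The 0 h culture had received raffinose and the same 30 min of galactose at 25 °C. Both came from the strain labelled YWG1245 (YAJ3), which the labels call WT without giving its genotype. Another WT culture in raffinose alone at 25 °C (pre-shift) shows where each gene stood before galactose. The strain 4Gts, labelled YWG1246 (YAJ41) and used in the series for depletion of the initiation factor eIF4G, passed through the same steps. Its 2 h and 0 h values are cited below beside some WT differences, whether they went the same way or not, and are not a replicate of them. With 1 culture at 2 h and 1 at 0 h there is no replicate check of any difference, and no test was made. Temperature, time after galactose and age of the culture changed together between 0 h and 2 h and cannot be told apart.

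Yeast moved to a warmer temperature makes chaperones under the transcription factor Hsf1 and a broad set of protective proteins under Msn2 and Msn4. At the same time it commonly lowers the genes for ribosomes and ribosome assembly, and much of this response is transient. Footprints report the ribosomes on an mRNA. Footprints divided by mRNA give the translational efficiency (TE), a measure of ribosomes per mRNA. Values below are RPKM scaled between libraries, differences are log2(RPKM + 1) at 2 h minus 0 h, and a gene is called higher or lower where its difference is at least 1 in size, which is 2-fold. RPKM and the scaling remove any change that all genes share, so a general fall or rise in mRNA or translation could not be seen. In bulk cultures, fewer cells expressing a gene and less RNA per cell cannot be told apart.

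Depths inferred from the steps between low RPKM values were 2.61 M mRNA reads and 3.66 M footprint reads at 2 h, and 2.72 M and 5.12 M at 0 h. Reads recovered per gene summed to 1.16 and 1.09 times these depths at 2 h and 1.10 and 1.07 times at 0 h, and the read shares below are of those sums. At 10 RPKM a gene of 1 kb then had a counting error of 19.6% in mRNA and 16.5% in footprints at 2 h, and 19.2% and 14% at 0 h. Of 6692 genes, 4731 averaged 10 RPKM or more in the footprint table and in the mRNA table of YPA and were kept. The cultures carried the marks of a-mating-type cells. STE2, the receptor for alpha-factor, had 564 RPKM of mRNA at 2 h and 418 at 0 h, and MFA1, an a-factor gene, had 1420 and 751. In the alpha-cell list 0 of 5 genes, and in the meiosis and spore list 0 of 16, passed the filter. The alpha-cell receptor gene STE3 had 6.41 RPKM of mRNA at 2 h and 0.544 at 0 h. GCN2, the kinase that senses uncharged tRNA, was nearly without reads, with 0.665 RPKM of mRNA at 2 h, 0.691 at 0 h and 0.722 pre-shift. Whether this strain differs from a plain wild type at GCN2, or at UBR1 (described with the galactose genes), cannot be read from the labels.

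Of the 4731 kept genes, 2293 had a difference above 0 in mRNA, 2480 in footprints and 2628 in TE. At 2 h, 332 of 4731 genes were at least 2-fold higher in mRNA than at 0 h (7.02%) and 171 were lower (3.61%). In footprints 302 were higher (6.38%) and 176 lower (3.72%). In TE 45 were higher (0.951%) and 75 lower (1.59%). Differences of this size also arose between cultures treated alike. The other medium of the series, SC, had 2 WT replicates at 2 h, also at 36 °C and with 30 min of galactose. Between them 12.1% of the 4268 genes kept in both media differed at least 2-fold in mRNA, 15.0% in footprints and 1.22% in TE. Over the same genes the 2 h and 0 h cultures in YPA differed at least 2-fold for 10.5% in mRNA, 9.47% in footprints and 2.23% in TE. The number of called genes in mRNA and footprints was therefore no larger than that between 2 replicates in SC. For mRNA 51.1% of genes had a larger difference between 2 h and 0 h than between the SC replicates, for footprints 43.3% and for TE 58.4%. Beside the leading lists and many of the genes the difference between the SC replicates is given as a measure of how far 2 cultures of this strain can lie apart.

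**Figure D1:**
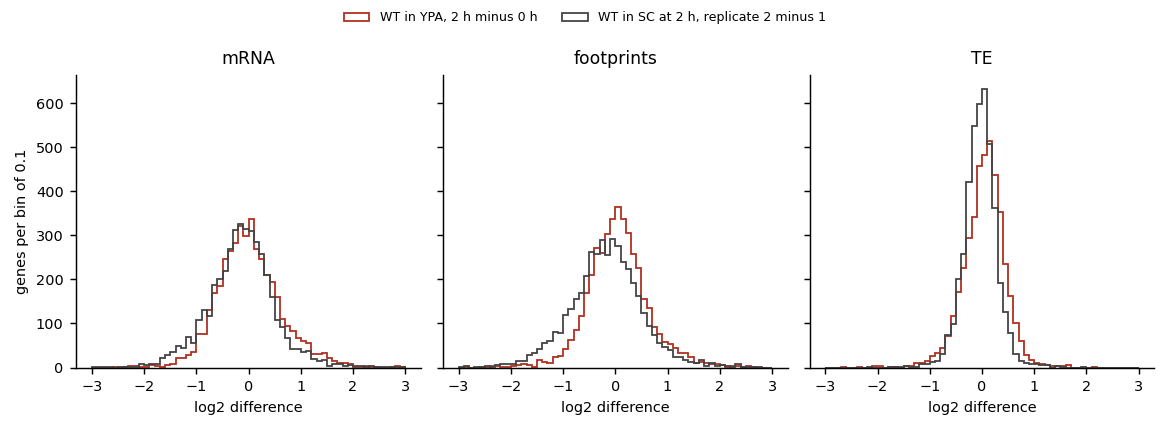
Numbers of genes (vertical axis, in bins of 0.1) by log2 difference (horizontal axis) for mRNA, footprints and TE over 4268 genes. Red lines give WT in YPA, 2 h minus 0 h, and dark lines the 2 WT replicates at 2 h in SC; the curves have like widths in mRNA, and the TE curve of the 2 h to 0 h difference is the wider of its pair, with 2.23% of genes past 2-fold against 1.22%.

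mRNA and footprints moved together for most genes. Across 4731 genes the mRNA and footprint differences had a Pearson r of 0.80 and a Spearman rho of 0.74, as a description of these 4 libraries, since genes are not independent replicates. Of the genes called higher in mRNA, 219 of 332 were also called higher in footprints, and of those called lower in mRNA 100 of 171 were also lower in footprints. In 0 genes were the 2 layers called in opposite directions.

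**Figure D2:**
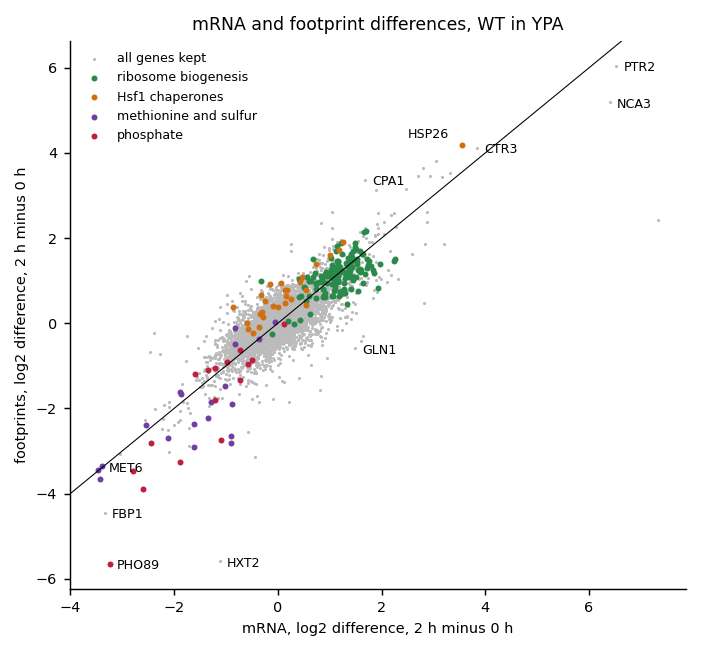
Each point is 1 of 4731 genes, with the mRNA difference on the horizontal axis and the footprint difference on the vertical axis (both log2, 2 h minus 0 h); the line marks equal differences. Ribosome biogenesis genes lie at the upper right with a median of 1.17 in mRNA and 1.16 in footprints, methionine and phosphate genes at the lower left, and HXT2 far below the line.

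The chaperones under Hsf1 and their partners were, as a group, higher in footprints than in mRNA. Of 32 listed genes 29 were kept. Their median difference was 0.07 in mRNA, 0.57 in footprints and 0.57 in TE, against −0.02, 0.03 and 0.05 for all genes. Between the SC replicates the list's medians were 0.29, 0.01 and −0.10. In mRNA 4 of 29 were called higher, against 7.02% of all genes, and in footprints 6, against 6.38%, with 0 called lower in either. In TE 28 of 29 lay above 0, against 2628 of 4731 genes, and 2 were called higher, against 0.951% of all genes. HSP26, the small heat shock protein that binds unfolding proteins, stood out with 862 RPKM of mRNA at 2 h against 72.4 at 0 h, and 2179 RPKM of footprints against 119. The 2 h values were above those at 0 h in both layers, by 3.55 in mRNA and 4.18 in footprints. The counting interval of its mRNA ratio ran from 3.31 to 3.86 on the log2 scale (exact 95% interval). The 2 SC replicates differed by 1.80 in HSP26 mRNA. HSP82, the inducible Hsp90, had 796 RPKM of mRNA at 2 h and 477 at 0 h, and its footprints were 1693 and 643 RPKM. That is a difference of 0.74 in mRNA and 1.39 in footprints, with 0.18 and −0.10 between the SC replicates. SSA4, an inducible Hsp70 nearly silent without stress, had 70.1 RPKM of mRNA at 2 h and 28.6 at 0 h, a difference of 1.27 against 1.38 between the SC replicates. The Hsp90 cochaperone HCH1 was higher by 1.18 in mRNA and 1.71 in footprints, and AHA1, of the same role, by 1.61 in footprints.

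Other chaperones had little difference in mRNA. HSP104, the disaggregase that pulls proteins out of aggregates, had 859 RPKM of mRNA at 2 h and 781 at 0 h, with footprints of 1216 and 874 RPKM. HSP42, a small heat shock protein that gathers misfolded proteins, had 230 RPKM of mRNA at 2 h and 287 at 0 h, with footprints of 541 and 461 RPKM. SSA1, a main cytosolic Hsp70, had 1756 RPKM of mRNA at 2 h and 1742 at 0 h, with footprints of 3874 and 2950. Reads of SSA1 and its near copy SSA2, and of HSP82 and HSC82, may be divided by the counting. The largest TE differences in the list were those of CUR1 (1.24), BTN2 (1.07), APJ1 (0.98) and YDJ1 (0.88). BTN2, which sorts misfolded proteins into deposits, had 76.7 RPKM of mRNA at 2 h and 85.6 at 0 h, with 74.6 and 39.1 RPKM of footprints. Abundant mRNAs in general had a somewhat higher TE at 2 h: among the 1183 genes with the most mRNA the median TE difference was 0.16. The 22 chaperones among them had a median of 0.55. Other lists among these 1183 genes also lay above 0.16, with 0.37 for 9 galactose, 0.31 for 20 TCA cycle and 0.30 for 18 glycolysis genes. The share of all footprint reads on the list was 4.29% at 2 h and 2.88% at 0 h, while its share of mRNA reads was 2.11% and 1.99%. HSF1 itself had 78.0 RPKM of mRNA at 2 h and 64.8 at 0 h. In 4Gts the list's median between 2 h and 0 h was −1.44 in mRNA, −0.89 in footprints and 0.58 in TE. Its footprints there went the opposite way to those of WT.

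**Figure D3:**
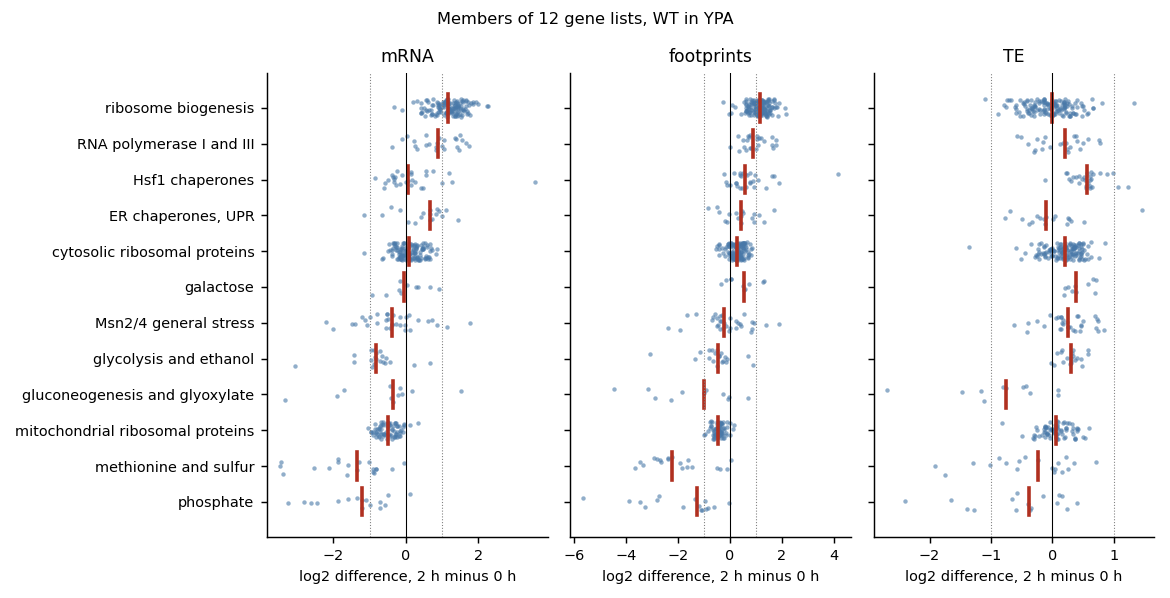
Differences of single genes (points; horizontal axis, log2, 2 h minus 0 h) in 12 lists for mRNA, footprints and TE, with the list median as a red bar, 0 as a solid line and 2-fold as dotted lines; the vertical place within a list has no meaning. Ribosome biogenesis lies highest in mRNA and footprints, methionine and phosphate lowest, and the Hsf1 chaperones have the highest TE median of the 12 lists (0.57).

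Genes for folding in the endoplasmic reticulum were mostly higher in mRNA at 2 h. Of 18 kept genes 14 lay above 0 in mRNA, against 2293 of 4731 genes, with a median of 0.66. In mRNA 2 were called higher and 1 lower, against 7.02% and 3.61% of all genes. KAR2, the Hsp70 of the endoplasmic reticulum, had 776 RPKM of mRNA at 2 h and 389 at 0 h, and 428 and 234 RPKM of footprints. ERO1, the oxidase that drives disulfide formation, had 331 RPKM of mRNA at 2 h and 122 at 0 h, a difference of 1.44, and JEM1, a KAR2 partner, was higher by 1.12. The list's median between the SC replicates was −0.83, which is larger in size. HAC1 encodes the regulator that switches on these genes under folding stress, and its mRNA is held back from translation until it is spliced. HAC1 mRNA was 1927 RPKM at 2 h and 1623 at 0 h, and its footprints were 379 and 116 RPKM. The frame YFL032W overlaps HAC1 and may share its reads. The TE of HAC1 was 1.45 higher at 2 h (95% counting interval 1.30 to 1.62, by a log-normal approximation), but the 2 SC replicates differed by −1.60. In the 4Gts pair it differed by 0.15.

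Genes of the general stress response under Msn2 and Msn4 were on balance lower at 2 h than at 0 h, and higher at 0 h than pre-shift. Over 33 kept genes the median mRNA difference was −0.39, with 2 called higher and 7 lower, against 7.02% and 3.61% of all genes. The median difference of 0 h minus pre-shift was 1.47, a comparison that uses the same 0 h libraries. CTT1, the cytosolic catalase, had 12.5, 69.2 and 29.2 RPKM of mRNA pre-shift, at 0 h and at 2 h, and ALD4, a mitochondrial aldehyde dehydrogenase, had 360 RPKM at 2 h and 1651 at 0 h. The small membrane-binding stress protein HSP12 kept a like level, with 279 RPKM at 2 h and 278 at 0 h (31.8 pre-shift), and polyubiquitin, UBI4, had 885 and 889. Trehalose and glycogen genes had a median of −0.67 over 16 genes, with 0 called higher and 5 lower against the same background. Among them GPH1, glycogen phosphorylase, was at −1.44 and GSY1, glycogen synthase, at −1.36. TPS1, which makes trehalose phosphate, had 289 RPKM of mRNA at 2 h and 529 at 0 h. TSL1, a regulatory subunit of the same enzyme complex, had a like level in both, with 285 and 279 RPKM. Redox genes had a median of −0.65, with 9 of 29 called lower (3.61% of all genes) and 0 higher. The peroxiredoxin AHP1 had 693 RPKM at 2 h and 2488 at 0 h, and SRX1, the sulfiredoxin that repairs peroxiredoxins, had 6.18 and 36.7 with footprints of 37.6 and 43.9. The TE difference of SRX1, 2.18, was the highest of all kept genes but rested on this low mRNA value at 2 h. SRX1 is not among the genes ranked for TE below. Between the SC replicates the mRNA medians were 0.83 for general stress, 0.02 for trehalose and glycogen and 0.29 for redox.

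Genes that build ribosomes were higher at 2 h as a group. Of 144 kept ribosome biogenesis genes 142 lay above 0 in mRNA and 105 were called higher, against 7.02% of all genes, and 0 were called lower. Their median was 1.17 in mRNA, 1.16 in footprints and −0.01 in TE. NSR1, the yeast nucleolin, had 345 RPKM of mRNA at 2 h and 135 at 0 h, with 168 and 57.0 RPKM of footprints. The mRNA difference of 1.35 stood beside −0.38 between the SC replicates. RIX1 and CGR1, both needed for large-subunit assembly, were higher by 2.27 and 2.23 in mRNA. Before the shift NSR1 mRNA had been at 534 RPKM, so the 2 h level lay between those of 0 h and pre-shift, and the list's median of 0 h minus pre-shift was −1.54. The list took 1.22% of footprint reads at 2 h and 0.556% at 0 h. Its mRNA median was 1.32 in the 4Gts pair and −0.54 between the SC replicates.

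Subunits of RNA polymerases I and III, which transcribe ribosomal and transfer RNA, had a median of 0.88 in mRNA, with 10 of 24 called higher, against 7.02% of all genes, and 0 lower. The list's median between the SC replicates was −0.56. RPC34 was higher by 1.75, RPA49 by 1.66 and RPA190, the largest polymerase I subunit, by 1.49. The proteins of the cytosolic ribosome did not share this difference in mRNA. Over 137 genes the mRNA median was 0.08 and the footprint median 0.30, with 0 called higher in either layer, against 7.02% and 6.38% of all genes. In footprints 116 of 137 lay above 0, against 2480 of 4731 genes. The list took 21.1% of footprint reads at 2 h and 17.0% at 0 h, and 13.1% and 12.1% of mRNA reads. RPL3 had 2807 RPKM of mRNA at 2 h and 2744 at 0 h (5046 pre-shift), and RPS3 had 2716 and 2326 (4640 pre-shift). The list's medians between the SC replicates were −1.37 in mRNA and −1.26 in footprints, larger in size than the 0.08 and 0.30 of the YPA pair. Mitochondrial ribosomal proteins were lower by a small amount: 73 of 75 lay below 0 in mRNA, against 2438 of 4731 genes, with a median of −0.49. Of them 1 was called lower, MRP4, against 3.61% of all genes.

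Of the translation factors, 0 of 29 initiation factors and 0 of 15 elongation and termination factors were called in mRNA, footprints or TE. Of all genes 10.6%, 10.1% and 2.54% were called in either direction. The initiation factor median was 0.13 in mRNA and 0.14 in TE. PAB1, the poly(A)-binding protein, had 566 RPKM of mRNA at 2 h and 638 at 0 h while its footprints were 869 and 572 RPKM, which gave the largest TE difference of the list (0.77, against −0.37 between the SC replicates). TIF4631 (eIF4G1) had 202 RPKM of mRNA at 2 h and 180 at 0 h. TIF4632 (eIF4G2) had 51.3 and 84.6. GCN4, which turns on amino acid synthesis and is held back by upstream reading frames, had 1296 RPKM of mRNA at 2 h and 1298 at 0 h, with 46.7 and 53.7 RPKM of footprints. Its TE difference was −0.19, with a counting interval of −0.51 to 0.12, and the SC replicates differed by −2.12.

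Methionine and sulfur assimilation genes were the list with the lowest mRNA median (−1.34). All 19 kept genes lay below 0 in mRNA, 12 were called lower against 3.61% of all genes, and 15 were called lower in footprints, where the median was −2.21. MET6, methionine synthase, had 115 RPKM of mRNA at 2 h and 1218 at 0 h, and 126 and 1302 RPKM of footprints. Both layers were lower at 2 h by a like amount (−3.39 in mRNA and −3.36 in footprints), and the 2 h level also lay below the 508 RPKM of pre-shift mRNA. MET17, which fixes sulfide into homocysteine, had 142 RPKM of mRNA at 2 h and 833 at 0 h. MET17 also differed by −2.14 between the SC replicates, MET6 by −0.72, and the list's median there was −0.29. MHT1, a homocysteine methyltransferase, was at −3.47 in mRNA and STR3, a cystathionine lyase, at −3.43. In TE 4 of the 19 were called lower, against 1.59% of all genes, and 8 lay above 0. MET14, which phosphorylates activated sulfate, had 38.1 RPKM of mRNA at 2 h and 71.7 at 0 h, but 9.45 and 72.0 RPKM of footprints. The other three were MET3, MET2 and MET16, with TE differences of −1.74, −1.29 and −1.01. In the 4Gts pair the list had a median of −0.63 in mRNA and −0.98 in footprints.

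Genes for taking up and scavenging phosphate were lower at 2 h. Of 16 kept genes 10 were called lower in mRNA and 11 in footprints, against 3.61% and 3.72% of all genes, and 0 higher in either. The medians were −1.21 and −1.26. PHO5, a secreted acid phosphatase, had 23.4 RPKM of mRNA at 2 h and 169 at 0 h, with 12.8 and 151 RPKM of footprints. PHO89, a phosphate transporter of the plasma membrane, had 23.1 RPKM of mRNA at 2 h and 227 at 0 h, and 1.14 and 106 RPKM of footprints. Its footprints, 7 reads at 2 h against 874 at 0 h, were at −5.65, below the −3.24 of its mRNA. PHO12 was at −2.60 in mRNA, and SPL2, a regulator of phosphate uptake, at −2.45. PHO12 and its near copy PHO11 may share reads. The list had a mRNA median of 0.64 in the 4Gts pair and −0.35 between the SC replicates.

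Genes of carbon use moved in different ways. Galactose genes were already high at 0 h. GAL1, galactokinase, had 17.2, 3853 and 6141 RPKM of mRNA pre-shift, at 0 h and at 2 h, and 4.66, 4544 and 11434 RPKM of footprints. GAL10 differed by 0.92 in mRNA between 2 h and 0 h, and the transporter gene GAL2 by −0.19. Over 10 genes the median was −0.05 in mRNA and 0.53 in footprints. All 10 lay above 0 in TE, against 2628 of 4731 genes, but 9 were among the 1183 genes with the most mRNA. The median TE difference of those 1183 genes was 0.16. The mRNA median between the SC replicates was 0.17. UBR1, which marks proteins with certain first residues for destruction, was also far higher after galactose, with 50.5, 1912 and 2406 RPKM of mRNA pre-shift, at 0 h and at 2 h. In the 4Gts pair the galactose list had a mRNA median of −2.01.

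Glycolysis and ethanol genes were lower in mRNA, with a median of −0.82 and 18 of 20 below 0, against 2438 of 4731 genes. A TE difference above 0 was found in 19 of 20, against 2628 of 4731 genes. However, 18 of the 20 were among the 1183 genes with the most mRNA, whose median TE difference was 0.16. The mRNA median between the SC replicates was −0.53. ENO2, enolase, had 2603 RPKM of mRNA at 2 h and 4291 at 0 h, but 7366 and 8109 RPKM of footprints, and the SC replicates differed by −1.44 in its mRNA. ADH2, the alcohol dehydrogenase that consumes ethanol, had 12.7 RPKM at 2 h and 112 at 0 h. The list took 9.48% of footprint reads at 2 h and 13.2% at 0 h. Gluconeogenesis and glyoxylate genes were lower in footprints (median −0.98, 5 of 11 called lower against 3.72% of all genes) more than in mRNA (−0.36). FBP1, fructose bisphosphatase, had 5.08 RPKM of mRNA at 2 h and 60.2 at 0 h, and 2.70 and 79.7 RPKM of footprints. PCK1, the carboxykinase that opens gluconeogenesis, had 33.8 RPKM of mRNA at 2 h and 46.0 at 0 h, and 8.33 and 81.0 RPKM of footprints. This list also differed between the SC replicates, with a median of 1.62 in mRNA and 2.35 in footprints, both larger in size than in the YPA pair. TCA cycle genes had a mRNA median of −0.52 and a TE median of 0.28, and respiratory chain genes −0.16 and 0.31. In mRNA 1 of 22 TCA cycle genes was called lower, and 1 of 38 respiratory chain genes in each direction. Of all genes 3.61% were lower and 7.02% higher. The mRNA medians of these 2 lists between the SC replicates were 0.18 and 0.04.

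**Figure D4:**
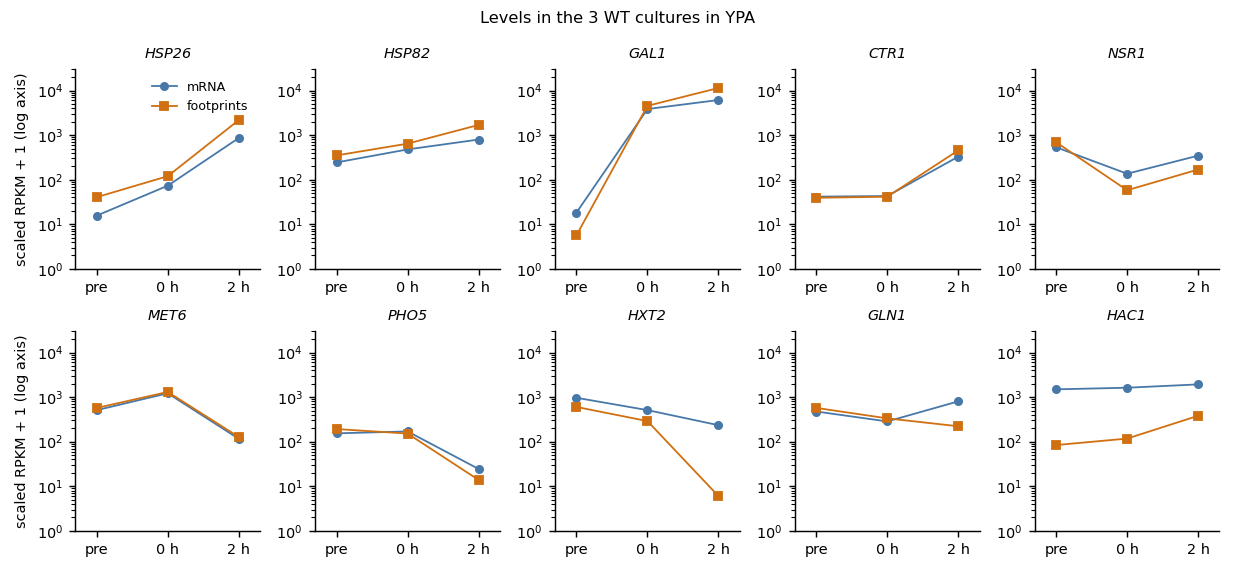
Scaled RPKM plus 1 (vertical log axis) of 10 genes in the WT cultures pre-shift, at 0 h and at 2 h (horizontal axis), with mRNA as blue circles and footprints as orange squares, 1 culture per point. The layers run together in MET6 and CTR1, and part at 2 h in HXT2 (233 RPKM of mRNA, 5.0 of footprints) and GLN1 (801 and 221).

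The largest mRNA difference of all kept genes was that of YBL039C-A, which was not matched in the RefSeq table, with 161 RPKM at 2 h and listed at 0 at 0 h; its footprints were 59.9 and 10.3 RPKM. It falls outside the rule for named genes and was picked after its values were seen. PTR2, the importer of small peptides, had 111 RPKM of mRNA at 2 h and 0.212 at 0 h, which were 528 reads and 1 read. The counting interval of that ratio ran from 6.53 to 14.3 on the log2 scale. No PTR2 footprint read was seen at 0 h and 419 were seen at 2 h, so its footprints were at least 188-fold higher at 2 h against a floor of 3 reads in the 0 h library. NCA3, a gene of the SUN family, had 180 RPKM of mRNA at 2 h and 1.14 at 0 h, and 73.4 and 1.04 RPKM of footprints. The copper transporter genes CTR3 and CTR1 had 385 and 328 RPKM of mRNA at 2 h, against 25.8 and 42.0 at 0 h. FRE1 and FRE7, reductases that make metal ions ready for uptake, were higher by 3.16 and 2.80 in mRNA. ARN1, a siderophore transporter, had 145 RPKM at 2 h and 21.5 at 0 h. The iron list as a whole had 2 of 18 genes called higher in mRNA, against 7.02% of all genes, and a median of −0.16. Between the SC replicates PTR2 differed by 0.50, NCA3 by 2.02, CTR3 by 0.55, CTR1 by 0.35, FRE1 by 1.62 and FRE7 by 1.80.

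Further genes with far more mRNA at 2 h were YRO2 (3.33), the uridine permease gene FUI1 (3.20), ARG3 of arginine synthesis (3.05) and JJJ3 (2.88). ARG3 had 38.9 RPKM of mRNA at 2 h and 3.80 at 0 h, and 39.3 and 1.86 RPKM of footprints. BDH2, related to butanediol dehydrogenase, was at −2.57. In the Gcn4 target list 5 of 52 genes were called higher and 4 lower, against 7.02% and 3.61% of all genes. Its mRNA median was −0.35, with 40 of 52 genes below 0, so as a whole it did not follow ARG3. The leucine genes LEU1 and LEU4 were at −1.44 and −1.09. Of the 20 genes named for their mRNA, 16 had the same sign in the 4Gts pair, and HSP26, PHO5, PHO12 and PHO89 had the opposite one. These genes were picked for their large WT differences, and the share of like signs over all genes was not worked out.

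Ribosome occupancy parted from mRNA for a small set of genes. HXT2, a high-affinity glucose transporter, had the largest TE difference of the genes named by rule. Its mRNA was 233 RPKM at 2 h and 509 at 0 h, while its footprints were 5.0 and 289 RPKM, from 29 and 2240 reads. Its TE difference was −4.47, with a counting interval of −5.26 to −4.18 for the log2 ratio, against 1.10 between the SC replicates and 0.50 in the 4Gts pair. PCK1 and PHO89 followed at −2.70 and −2.40. GLN1, glutamine synthetase, had opposite layers: mRNA was 801 RPKM at 2 h and 283 at 0 h, and footprints were 221 and 332. Its TE difference was −2.09, with 0.13 between the SC replicates and −0.80 in the 4Gts pair. IZH2, a membrane protein of zinc balance, was at −2.06 in TE, SNZ1 of vitamin B6 synthesis at −1.96, MET14 at −1.91 and OAZ1, the antizyme of polyamine control, at −1.76. SNZ1 rested on 3 footprint reads at 2 h and 44 at 0 h.

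**Figure D5:**
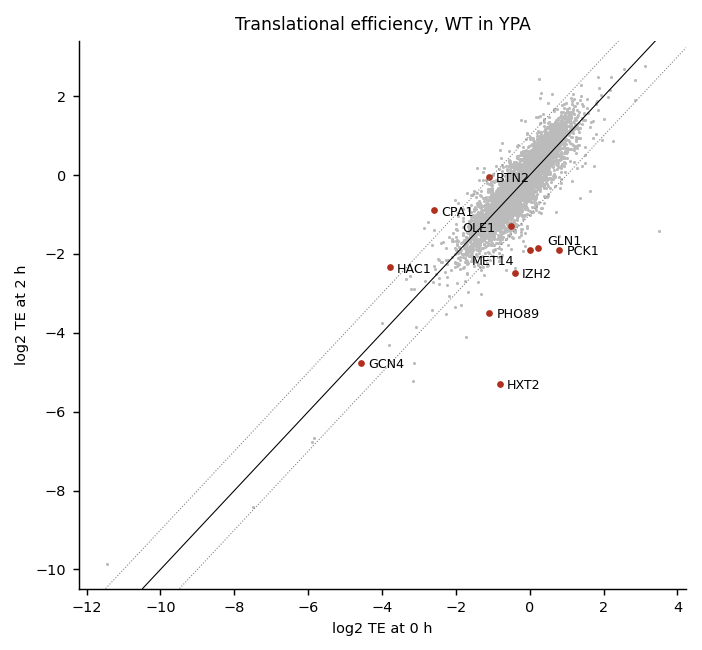
log2 TE of 4731 genes at 2 h (vertical axis) against 0 h (horizontal axis); the solid line marks equal TE and the dotted lines a 2-fold difference, and red points are genes named in the text. HXT2, PHO89 and PCK1 lie below the lower dotted line and CPA1 and HAC1 above the upper one, while GCN4 lies close to the solid line.

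CPA1 had the largest gain in TE at 2 h among genes with a counting interval above no change and at least 10 mRNA reads per library. It encodes the small subunit of carbamoyl phosphate synthase, and an upstream frame that reads the arginine level holds back its translation. CPA1 had 213 RPKM of mRNA at 2 h and 66.1 at 0 h, with 114 and 10.2 RPKM of footprints. The TE difference was 1.69 (counting interval 1.36 to 2.25 for the log2 ratio), with −0.54 between the SC replicates and 1.36 in the 4Gts pair. ARG8, of the same pathway, was higher by 1.20 in TE. Of 22 kept genes with upstream frames 1 was called higher in TE, CPA1 itself, against 0.951% of all genes. The list's median in TE was 0.11, against 0.05 for all genes. MIM2 (1.66), RTT105 (1.63), OLI1 (1.61), PUT1 (1.55), SPR6 (1.53) and NBL1 (1.50) had fewer reads behind them. OLI1, encoded in the mitochondrial genome, rested on 10 footprint reads at 2 h and 3 at 0 h. OLE1, the fatty acid desaturase, had 1495 RPKM of mRNA at 2 h and 978 at 0 h but 607 and 688 RPKM of footprints, a TE difference of −0.79. The G1 cyclin CLN3 was at −0.50 in TE. Of the 16 genes named for TE, 11 had the same sign in the 4Gts pair. They too were picked for large WT differences, and the share of like signs over all genes was not worked out.

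TE was spread more widely over genes at 2 h. Across 4731 genes log2 TE had an SD of 0.921 at 2 h and 0.797 at 0 h. The gene at the 90th percentile had 4.84 times the TE of the gene at the 10th at 2 h and 3.76 times at 0 h. The TE difference had a Spearman rho of 0.24 with the mRNA level at 0 h, which enters both, and of −0.06 with gene length over 4678 genes. The 2 SC replicates had SDs of 1.27 and 1.30, over the genes averaging 10 RPKM or more in SC, which is another set of genes. Footprint depth was lower at 2 h (3.66 M reads) than at 0 h (5.12 M), and its part in the wider spread was not tested.

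Cell wall genes were on balance lower at 2 h. Of 35 kept, 6 were called lower and 2 higher in mRNA, and 8 lower and 2 higher in footprints, against 3.61%, 7.02%, 3.72% and 6.38% of all genes. CWP1, a mannoprotein, was at −1.93 in mRNA and UTR2, a chitin transglycosylase, at −1.71. The list's mRNA median was −0.25, with −0.09 between the SC replicates.

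In the lists not yet described, at most 3 genes each were called in mRNA. These lists are short, and of all genes 7.02% were called higher in mRNA and 3.61% lower. The proteasome had 0 of 36 called in any measure, with a mRNA median of −0.01, and the aminoacyl-tRNA synthetases 0 of 21 with a median of 0.00. Chaperonin and prefoldin genes had 1 of 14 called higher in mRNA, GIM4 (1.23), and 1 in TE, YKE2 (1.03), against 0.951% of all genes in TE. Ergosterol genes had 3 of 25 called lower in mRNA, among them HMG2 (−1.17), and fatty acid and sphingolipid genes 2 of 24, among them OPI3 (−1.18). Histone genes lay below 0 in mRNA for 9 of 10, against 2438 of 4731 genes, with a median of −0.54. HHO1, the linker histone, was at −1.32. G1 and S phase genes had 0 of 29 and G2 and M phase genes 2 of 30 called, both lower. Purine genes had 2 of 15 called higher, among them IMD4 (1.69), autophagy genes 1 of 18 in each direction with ATG8 at −1.03, and mRNA decay genes 0 of 26. Of the ubiquitin and turnover genes 1 of 22 was called, the vacuolar protease PEP4 at −1.16. Hexose transport genes had 7 of 20 kept, 2 of them lower in mRNA, HXT7 (−2.09) and HXT2. HXT7 and its near copy HXT6 may share reads. Genes of a-cells and mating lay above 0 in mRNA for 13 of 14, against 2293 of 4731 genes, with a median of 0.42 and 0 called. Their median between the SC replicates was −1.01, which is larger in size.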

How the data were processed

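Footprint and mRNA libraries were made from 2 WT cultures in YPA. Cycloheximide was added before harvest, per the labels' protocols, which can shift where ribosomes are caught on an mRNA. TopHat, DESeq and the build sacCer3 are named in the submitters' processing notes, with their versions, the annotation and the counting rule not given in the sources used here. RPKM tables with 1 column per library were deposited by the authors. They also deposited TE as a linear ratio, which equalled footprint over mRNA RPKM times 1.46 at 2 h and 1.42 at 0 h, and it served as an alternative.

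From these, log2(RPKM + 1) was taken after scaling: each library was divided by the median, over genes, of its ratio to the average YPA library of its kind. Genes averaging 10 RPKM or more in footprints and in mRNA were kept. Low RPKM values fell on whole reads (within 0.05, up to 10 reads) for 96.2% to 98.2% of values once gene length was shortened by 24 nt, which gave depths and 95% intervals that cover counting error only (Clopper-Pearson for read ratios, a log-normal approximation for TE). RefSeq lengths include introns, so reads of intron-bearing genes are overstated. Symbols came from a RefSeq table (6008 of 6692 locus tags matched). Steps were tested on simulated data. Python 3.11.15 was used with numpy 2.4.6, pandas 2.3.3, scipy 1.17.1 and matplotlib 3.10.9.

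The comparison, the named genes and the gene lists were chosen with earlier results of these data known. The text names 30 preset genes and the 10 genes with the largest difference in each direction in mRNA, or 8 in footprints and in TE, among kept genes with a symbol whose counting interval left out no change (for TE, with at least 10 reads in both mRNA libraries), plus up to 4 per list in mRNA and in TE. Alternatives were the scaling, the pseudocount, the filter and the authors' ratios. Genes with near copies, overlaps or antisense partners are uncertain.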

Additional observations from a re-analysis of the deposited data

Results flagged for a closer look

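Some results went opposite ways in the WT pair and the 4Gts pair. Each strain has 1 culture at 2 h and 1 at 0 h, and none of these differences was tested. The phosphate list had a median of −1.21 in mRNA and −1.26 in footprints in WT, and 0.64 and 0.43 in 4Gts. PHO5 was at −2.80 in mRNA and −3.46 in footprints in WT, and at 1.03 and 1.22 in 4Gts. PHO89 mRNA was at −3.24 in WT and 0.85 in 4Gts. HSP26 mRNA was at 3.55 in WT and −0.97 in 4Gts, while its footprints were at 4.18 and 0.32. PHO89 footprints were at −5.65 and −0.76, with the same sign in both strains. The galactose list was at 0.53 in footprints in WT and −1.58 in 4Gts. The hexose transport list was at −0.43 in TE in WT and 1.02 in 4Gts, over 7 genes. SNZ1 TE was at −1.96 in WT and 2.44 in 4Gts, with 3 footprint reads in WT at 2 h.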

How the results depend on the processing

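No paired analysis was possible because no result comes from a test and each side has 1 culture. Counts in mRNA and footprints stayed within 1.5 times under other scalings, pseudocounts, filters and counting intervals, except the genes higher in mRNA at a mean of at least 30 RPKM. These numbered 220 of the 3219 genes kept there, against 332 of 4731 with the filter of 10 RPKM. The TE counts changed with the setting, and the settings keep unlike numbers of genes. Genes higher in TE numbered 78 of 5562 with no filter, 27 of 3219 at 30 RPKM and 21 of 4218 by the authors' deposited ratios. With the filter of 10 RPKM they had been 45 of 4731. Genes lower in TE, 75 of 4731 with the filter of 10 RPKM, numbered 45 of 4731 with a pseudocount of 5 RPKM. They were 165 of 5562 with no filter, 32 of 3219 at 30 RPKM and 47 of 4218 by the authors' deposited ratios. The SD of log2 TE at 2 h and 0 h was 0.845 and 0.722 with a pseudocount of 5 RPKM, 1.19 and 1.07 with no filter and 0.800 and 0.658 at 30 RPKM, and 0.825 at 0 h with a pseudocount of 0.1 RPKM. It was the higher at 2 h in each. As shares of summed footprint RPKM at 2 h and 0 h, Hsf1 chaperones took 2.60% and 1.67%, ribosome biogenesis 0.898% and 0.441%, methionine 0.164% and 0.474%, phosphate 0.119% and 0.327% and glycolysis 6.87% and 9.67%, with the direction kept in all 5. Of 648 recomputed list medians 75 moved beyond the SC replicate spread, and of 781 values of named genes 103 left their counting interval. No called median or gene changed sign. The Hsf1 chaperone median in mRNA was 0.24 with quantile normalization, and the methionine median in TE was 0.04 at 30 RPKM. Depth limits genes under about 10 reads, among them PTR2, SNZ1 and OLI1.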
